A study of Mus musculus with 2 samples.

Results

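Some microRNAs known from neurons are encoded at 2 places in the mouse genome, and the same mature RNA can be cut from the hairpin of either place. The genes described here are the loci of mir-128, mir-129, mir-138 and mir-218, together with Mir129b, which is annotated on the opposite strand of Mir129-2. They were taken by gene symbol, 9 of the 2202 miRNA genes in the count tables, and all 9 were found. The libraries came from tissue labelled as layer of hippocampus, of male B6CASTF1/J mice (F1 hybrids) aged 18 to 20 months. There was 1 group of 2 microRNA sequencing libraries of RNA in a size range under 30, replicate 1 and replicate 2, with no treatment, genotype or second age to compare. The labels number the libraries as biological replicates with separate tissue entries, and both point to one donor entry. Separate animals are not stated, so differences between the libraries, and the p-values below, may reflect technical spread.

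A microRNA is cut from one or both arms of an RNA hairpin, the 5p arm and the 3p arm. It pairs with messenger RNAs mainly through its seed, bases 2 to 8, and lowers their translation or stability. In the brain, miR-128 is known for damping neuronal excitability, miR-129 for control of potassium channels and synaptic scaling, miR-138 for limiting dendritic spine size, and miR-218 for motor neuron identity and excitability. A hairpin inside an intron can be made from the transcript of its host gene, so the loci of a microRNA can come under separate promoters.

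The mature sequences are shown first because they set what a count at one locus can hold. RefSeq (GRCm38.p6) listed 17 mature entries for the 9 genes, with 13 distinct names. The 4 microRNAs that are the same at both of their loci have these sequences, 5′ to 3′, with the seed in capitals:
miR-128-3p: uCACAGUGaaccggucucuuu
miR-129-5p: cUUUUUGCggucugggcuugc
miR-138-5p: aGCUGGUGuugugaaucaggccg
miR-218-5p: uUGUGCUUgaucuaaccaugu

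These 4 have different seeds. The RefSeq mouse table had 1738 mature entries, in which a microRNA made at 2 loci is entered for each. No microRNA of another name had the seed of miR-128-3p, miR-129-5p or miR-138-5p, and miR-7002-3p had that of miR-218-5p. Each of the 4 occurs in exactly 1 other annotated hairpin, the one at its second locus. The reverse complement of miR-129-5p also lies in the hairpin of Mir129b.

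The opposite arms differ between the loci and mark which locus a read came from where it covers an unlike base. With the seed in capitals they are:
miR-128-1-5p: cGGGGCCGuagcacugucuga
miR-128-2-5p: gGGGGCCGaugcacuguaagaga
miR-138-1-3p: cGGCUACUucacaacaccaggg
miR-138-2-3p: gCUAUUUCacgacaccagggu
miR-218-1-3p: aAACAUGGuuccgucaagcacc
miR-218-2-3p: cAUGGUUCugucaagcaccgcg
miR-129-2-3p: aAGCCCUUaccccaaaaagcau

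The 5p arms of mir-128 differ at 5 of 21 aligned bases and keep 1 seed. Counted from the 5′ end of miR-128-1-5p, with the base of locus 1 first, the changes are C1G, U9A, A10U, C18A and U19A. The 3p arms of mir-138 and mir-218 differ less in bases but start at different points. Their seeds differ, for mir-138 also through a changed base inside the seed. The mir-138 arms have 2 changes over 20 aligned bases, C7U and A13G, counted in miR-138-1-3p. The mir-218 arms have 1 change over 19 aligned bases, C12U, counted in miR-218-1-3p. The hairpin of Mir129-1 holds the sequence of miR-129-2-3p with 1 change, C20U, counted from the 5′ end of miR-129-2-3p.

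The stretch that is identical at both loci reaches little beyond the shared mature RNA. The lines below give the longest identical stretch in capitals, with up to 3 bases of each hairpin on either side in lower case, since the first unlike base is where a read can be told apart:
Mir128-1: auuUCUCACAGUGAACCGGUCUCUUUuuc
Mir128-2: aggUCUCACAGUGAACCGGUCUCUUUccc
Mir129-1: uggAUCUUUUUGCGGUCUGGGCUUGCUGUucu
Mir129-2: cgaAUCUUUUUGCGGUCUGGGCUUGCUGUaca
Mir138-1: ggaCAGCUGGUGUUGUGAAUCAGGCCGuug
Mir138-2: CAGCUGGUGUUGUGAAUCAGGCCGacg
Mir218-1: cugUUGUGCUUGAUCUAACCAUGUGcuu
Mir218-2: ccuUUGUGCUUGAUCUAACCAUGUGgug

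The shared stretch is 23 nt for mir-128, 26 nt for mir-129, 24 nt for mir-138 and 22 nt for mir-218. Past the 3′ end of the mature RNA, 0 further bases are shared for mir-128 and for mir-138, 1 for mir-218 and 3 for mir-129. The next base is U at Mir128-1 and C at Mir128-2, U at Mir138-1 and A at Mir138-2, C at Mir218-1 and G at Mir218-2, and U at Mir129-1 and A at Mir129-2. Of all 22-nt windows along a hairpin, between 1 (Mir218-1 and Mir218-2) and 5 (Mir129-1, Mir129-2 and Mir129b) recur, on either strand, in a hairpin elsewhere in the annotation. Those of Mir129b recur on the opposite strand, as its longest stretch shared on the same strand is 12 nt. At 24 nt, windows recur for mir-129 (3) and mir-138 (1), and none for mir-128 or mir-218.

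**Figure D1:**
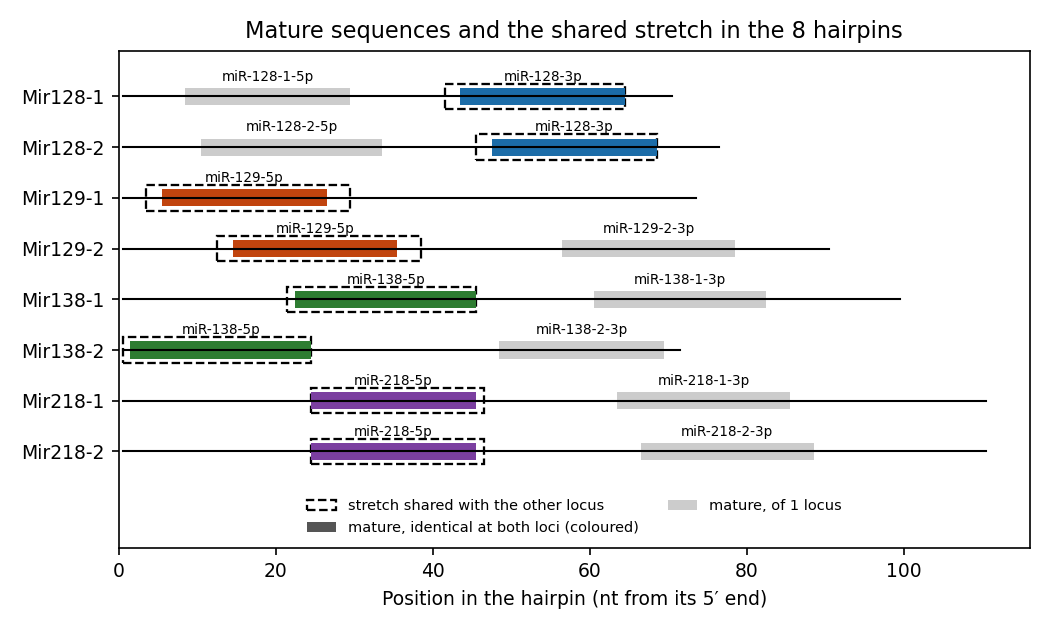
Map of the 8 hairpins of the 4 microRNAs, with position in nt from the 5′ end of the hairpin on the horizontal axis; coloured bars are mature RNAs identical at both loci, grey bars are mature RNAs of 1 locus, and dashed boxes are the longest stretch shared with the other locus. The boxes, 22 to 26 nt long, extend at most 3 nt past the 3′ end of the coloured bar.

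Each table counts reads per gene, and reads that mapped to several places stand in a summary line and in no gene. They were 51.5% of 10594081 reads in replicate 1 and 46.7% of 16131923 reads in replicate 2. A gene count can therefore hold reads of the unlike arm and reads that run past the shared stretch. The tables give neither arms nor read ends, so a locus share need not be the share of the mature RNA made at that locus. The counted total was 3758318 in replicate 1 and 5598792 in replicate 2. All levels below are sense-strand counts per 1000000 counted reads (CPM), with mean ± SD over n = 2, and they are levels of locus-assigned reads and not of the whole microRNA. Detection meant at least 10 sense counts in each library, which 384 genes and 8 of the 9 described here reached.

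The mir-128 loci held most of the counts of the 9 genes. Mir128-1 (ENSMUSG00000065520.2, mm10 chromosome 1, 128202361 to 128202430, plus strand) lies in intron 19 of 26 of the principal transcript of R3hdm1, which encodes a protein with an R3H nucleic acid-binding domain. It had 45795 counts or 12185 CPM in replicate 1 and 80802 counts or 14432 CPM in replicate 2, a mean of 13308.5 ± 1588.9 CPM. With 1.22% and 1.44% of all counted reads it was the 16th gene of the table by mean level, between Mir151 (13501 ± 1497 CPM) and Mir137 (12226 ± 884 CPM). Those neighbours differ from it by less than its own spread.

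Mir128-2 (ENSMUSG00000065441.2, chromosome 9, 112118636 to 112118711, minus strand) lies in intron 19 of 20 of the principal transcript of Arpp21, a gene of a cAMP-regulated phosphoprotein of forebrain neurons. It had 9346 counts or 2487 CPM in replicate 1 and 14502 counts or 2590 CPM in replicate 2, a mean of 2538 ± 73.2 CPM. Its levels in the 2 libraries were closer in CPM than those of any other detected gene of the 4 pairs, with a coefficient of variation of 2.88%. Mir128-1 exceeded it 4.90-fold in replicate 1 and 5.57-fold in replicate 2. Mir128-1 thus held 83.1% of the counts of both loci (95% Wilson interval 82.7 to 83.4%) in replicate 1 and 84.8% (84.6 to 85.0%) in replicate 2.

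The mir-138 loci were the most even of the 4 pairs. Mir138-1 (ENSMUSG00000065414.1, chromosome 9, 122682876 to 122682974, plus strand) overlaps the single spanning transcript of Gm47135, a transcribed unprocessed pseudogene, in an exon. It had 13473 counts or 3585 CPM in replicate 1 and 29845 counts or 5331 CPM in replicate 2, a mean of 4458 ± 1234 CPM. In order of mean it stood between Mir92b (4714 ± 1962 CPM) and Mir541 (4229 ± 580 CPM), again within its spread. Mir138-2 (ENSMUSG00000065512.3, chromosome 8, 94324311 to 94324381, plus strand) lies in an exon of the long non-coding gene C78859, 4.82 kb from Slc12a3. It had 6926 counts or 1843 CPM in replicate 1 and 16234 counts or 2900 CPM in replicate 2, a mean of 2371 ± 747 CPM. Both loci were higher in replicate 2. The share of Mir138-1 was 66.0% (65.4 to 66.7%) in replicate 1 and 64.8% (64.3 to 65.2%) in replicate 2, or 1.95-fold and 1.84-fold the count of Mir138-2.

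For mir-129 the locus numbered 2 led. Mir129-2 (ENSMUSG00000065511.1, chromosome 2, 94241364 to 94241453, minus strand) is intronic in all 3 spanning transcripts of the long non-coding gene Mir670hg. It had 1912 counts or 509 CPM in replicate 1 and 7888 counts or 1409 CPM in replicate 2, a mean of 959 ± 636 CPM. The next genes by mean were Mir28a (974 ± 60.8 CPM) and Mir370 (900 ± 28.5 CPM), both with a smaller spread between the libraries. Mir129-1 (ENSMUSG00000065469.1, chromosome 6, 29022619 to 29022691, plus strand) lies in an exon of the long non-coding gene Gm3294, 37.5 kb from Lep. It had 305 counts or 81.2 CPM in replicate 1 and 1082 counts or 193 CPM in replicate 2, a mean of 137 ± 79.3 CPM. Both genes were higher in replicate 2, and the levels of Mir129-2 lay above those of Mir129-1 without overlap. Mir129-1 held 13.8% (12.4 to 15.3%) of the counts of both loci in replicate 1 and 12.1% (11.4 to 12.8%) in replicate 2.

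Mir129b, on the other strand of Mir129-2, was close to 0. Its 65-nt hairpin (ENSMUSG00000106336.1, chromosome 2, 94241378 to 94241442, plus strand) lies inside the 90-nt hairpin of Mir129-2. It had 2 sense counts (0.532 CPM) in replicate 1 and 4 (0.714 CPM) in replicate 2, beside the 0.798 and 0.536 CPM that a count of 0 allows. On its opposite strand it had 1910 and 7870 counts, which are reads that the tables also count for Mir129-2 on the sense strand. These made up 99.9% (interval 99.6 to 99.97%) and 99.8% (99.6 to 99.9%) of the reads of Mir129-2. Mir129b held 0.104% (0.0287 to 0.380%) and 0.0507% (0.0197 to 0.130%) of the sense counts of the 2 overlapping genes. The unstranded column drops reads that fall on both genes and left 2 and 18 counts for Mir129-2 and 0 for Mir129b. The other 7 genes had 0 opposite-strand counts in either library, and their unstranded counts equalled their sense counts.

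The mir-218 loci were the most uneven of the 4 pairs and the lowest in sum. Mir218-2 (ENSMUSG00000065583.1, chromosome 11, 35616816 to 35616925, plus strand) lies in intron 14 of 35 of the principal transcript of Slit3, and Mir218-1 (ENSMUSG00000065603.1, chromosome 5, 48223942 to 48224051, plus strand) in intron 14 of 35 of that of Slit2. Slit2 and Slit3 encode secreted axon guidance ligands of Robo receptors, and the hairpins sit at the same intron number of these paralogs. Mir218-2 had 1588 counts or 423 CPM in replicate 1 and 2018 counts or 360 CPM in replicate 2, a mean of 391 ± 43.9 CPM. It stood between Mir145a (397 ± 247 CPM) and Mirlet7f-1 (354 ± 42.2 CPM). Mir218-1 had 78 counts or 20.8 CPM in replicate 1 and 245 counts or 43.8 CPM in replicate 2, a mean of 32.3 ± 16.3 CPM. In CPM, Mir218-1 was higher in replicate 2 and Mir218-2 in replicate 1, and the share of Mir218-1 was 4.68% (3.77 to 5.80%) in replicate 1 and 10.8% (9.61 to 12.2%) in replicate 2. Mir218-2 exceeded Mir218-1 20.4-fold in replicate 1 and 8.24-fold in replicate 2.

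**Figure D2:**
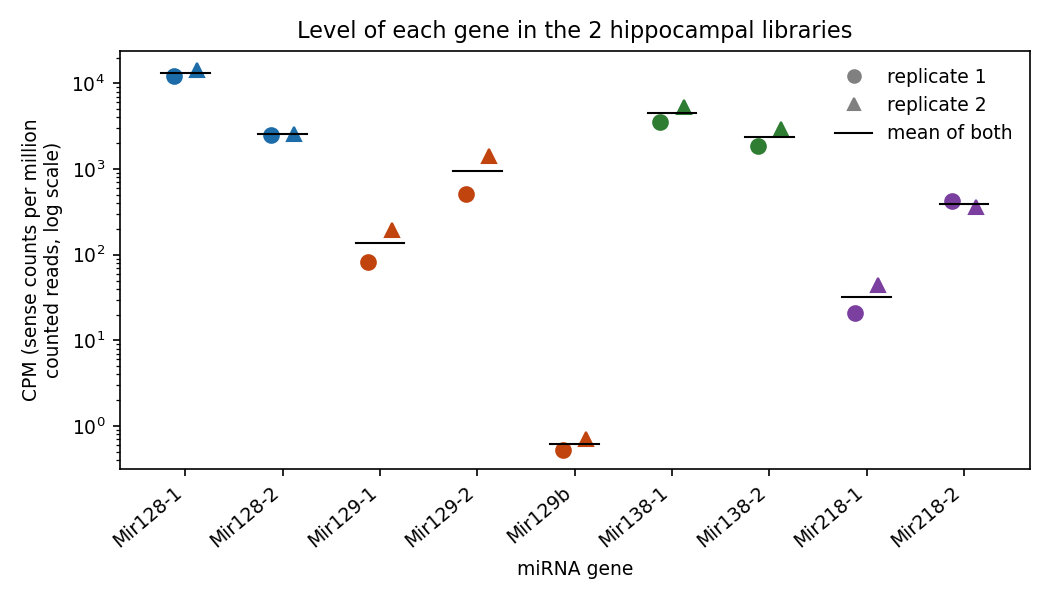
Level of the 9 genes in CPM on a log axis, with circles for replicate 1, triangles for replicate 2 and bars for the mean of both libraries. Mir128-1 is highest at 12185 and 14432 CPM and Mir129b lowest at 0.532 and 0.714 CPM, and within each pair 1 locus is above the other in both libraries.

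In order of mean level, the genes were Mir128-1, Mir138-1, Mir128-2, Mir138-2, Mir129-2, Mir218-2, Mir129-1, Mir218-1 and Mir129b. Neighbours in this order did not overlap across the libraries, apart from Mir128-2 and Mir138-2. Mir128-2 was the higher of these in replicate 1 (2487 against 1843 CPM) and Mir138-2 in replicate 2 (2900 against 2590 CPM). Summed over both loci, locus-assigned reads were 15847 ± 1662 CPM for mir-128, 6829 ± 1982 CPM for mir-138, 1096 ± 716 CPM for mir-129 and 424 ± 27.6 CPM for mir-218. The 9 genes together held 2.42% ± 0.433 of the counted reads.

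The hosts fall into coding introns and non-coding transcripts. Mir128-1, Mir128-2, Mir218-1 and Mir218-2 are intronic in every spanning transcript of a protein-coding gene on their strand, 2, 9, 7 and 1 transcripts in that order. The loci of mir-129 and mir-138 overlap long non-coding genes or a pseudogene, in an exon for Mir129-1, Mir138-1 and Mir138-2. No other miRNA gene is close to these loci: the nearest that does not overlap is Mir670, 19.8 kb from Mir129-2 on the same strand. The tables hold miRNA genes only, so host transcript levels were not analysed here and no locus could be set against its host.

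The locus shares were set beside every other pair of the annotation whose symbols differ only in a final -1 and -2 with no further copy. There were 43 such pairs, of which 22 had at least 10 counts over both loci in each library. In the 18 pairs outside the 4 described here, the larger locus held a median of 72.5% of the counts (range 52.3 to 100%). It held 65.4% for mir-138, 83.9% for mir-128, 87.1% for mir-129 and 92.2% for mir-218, with 13, 8, 8 and 7 of the 18 other pairs above them. These levels of unevenness lay within the range of the other pairs. The larger locus was the same in both libraries for all 4 pairs and for 16 of the 18 others.

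Whether a share differed between the libraries was asked with Fisher's exact test (two-sided), Benjamini-Hochberg adjusted over all 22 pairs. It called 11 of 22 pairs (50%), and 3 of the 4 described here. The share of Mir218-1 differed by 6.14 percentage points (Fisher's exact test, adjusted p = 1.12e-11), that of Mir128-1 by 1.73 points (Fisher's exact test, adjusted p = 1.17e-17) and that of Mir138-1 by 1.28 points (Fisher's exact test, adjusted p = 0.00317). The share of Mir129-1 differed by 1.69 points and was not called (Fisher's exact test, adjusted p = 0.0566). The median difference in the 18 other pairs was 3.43 points and the largest 23.9 points, so of the 4 only mir-218 differed by more than that median. The test covers counting error alone and compares these libraries.

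**Figure D3:**
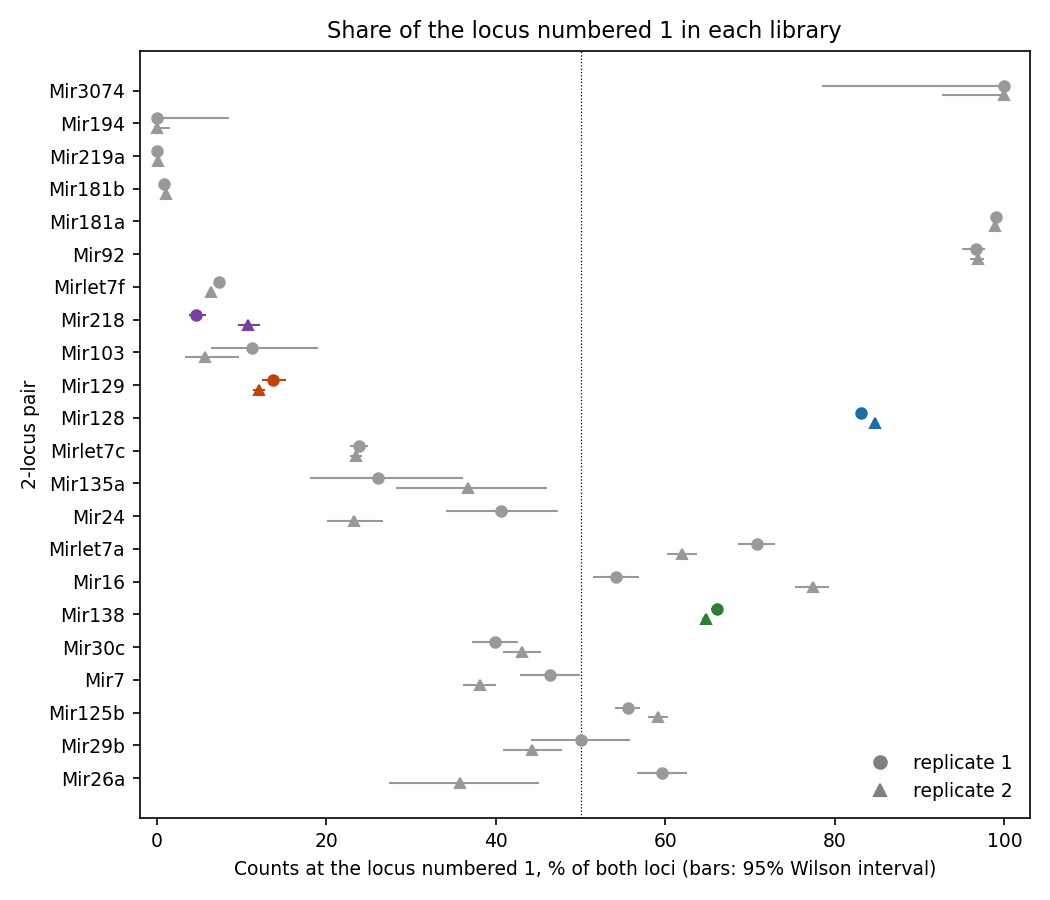
Counts at the locus numbered 1 in percent of the counts of both loci, for the 22 tested pairs, with circles for replicate 1, triangles for replicate 2 and bars for 95% Wilson intervals; the 4 pairs described here are coloured and pairs are ordered by the mean share of the larger locus. Points of mir-128, mir-129 and mir-138 lie 1.28 to 1.73 points apart, and those of mir-218 lie 6.14 points apart.

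Each detected gene was also compared between the libraries with an exact two-sided binomial test on the TMM scale of edgeR, adjusted over all 384 genes. Of these, 250 (65.1%) were called, 119 (31%) as higher in replicate 2. All 8 detected genes described here were called, 5 as higher in replicate 2 and 3 as higher in replicate 1, in a table where 65.1% of genes were. The median difference of the 8 was 1.36-fold, and that of all detected genes was also 1.36-fold. The spread between the libraries over all detected genes was a coefficient of variation of 34.2% (edgeR common dispersion).

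Of the 8, the mir-129 genes differed most. Mir129-2 was 2.22-fold higher in replicate 2 (exact 95% interval 2.11 to 2.34, exact binomial test, adjusted p = 1.02e-248), a difference larger than that of 88.5% of detected genes, whatever their direction. Mir129-1 was 1.91-fold higher (1.68 to 2.18) and Mir218-1 1.69-fold higher (1.31 to 2.21) in replicate 2. Mir138-1 and Mir138-2 were 1.19-fold and 1.26-fold higher in replicate 2, and Mir218-2 was 1.46-fold higher (1.37 to 1.56) in replicate 1. Mir128-1 and Mir128-2 were 1.05-fold and 1.20-fold higher in replicate 1 on the TMM scale, and 1.18-fold and 1.04-fold higher in replicate 2 in CPM, so their direction rests on the scaling. The scales differ by a factor of 1.25, which puts the median log2 ratio of detected genes at -0.01 (TMM) or 0.31 (CPM). The other 6 kept their direction with TMM, DESeq2 size factors and total counts.

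**Figure D4:**
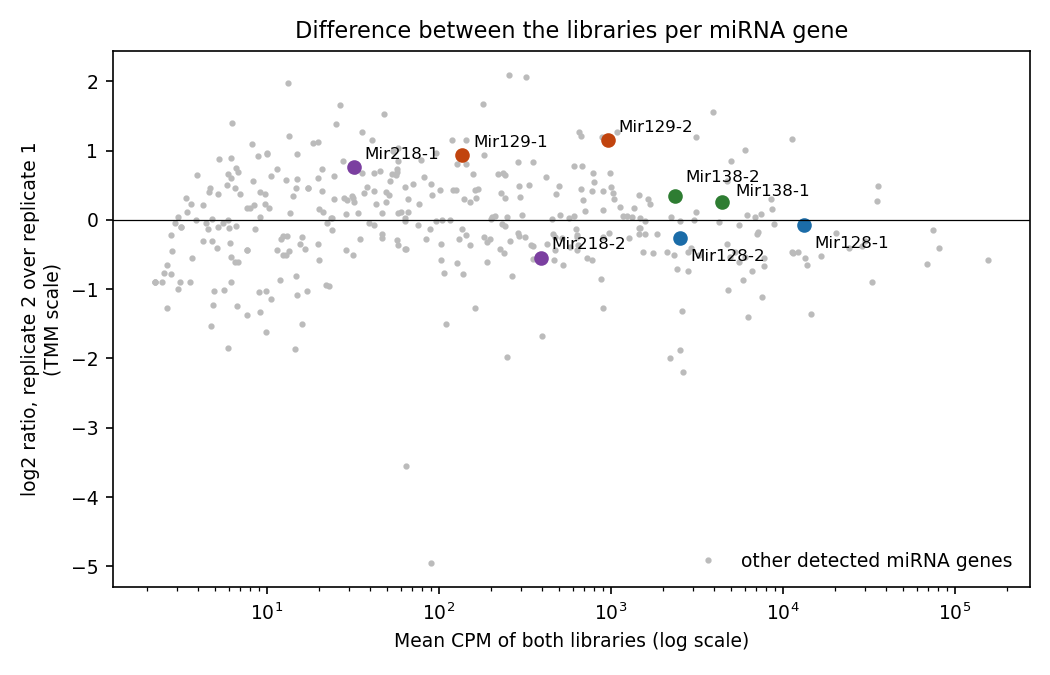
log2 ratio of replicate 2 over replicate 1 on the TMM scale against the mean CPM (log axis) for the 384 detected genes, with the 8 detected genes of the 4 pairs coloured and named. Among the 8 named genes, Mir129-2 and Mir129-1 lie highest at 1.15 and 0.94, Mir218-2 lowest at -0.55 and Mir128-1 near 0 at -0.07, and other detected genes lie above and below them.

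Other microRNA genes described as enriched in neurons gave the setting for these values. Of a list of 15, 11 were detected and summed to 30689 ± 1946 CPM, with a median of 28.7 CPM over all 15 and 239 CPM over the 11, beside 102 CPM over all detected genes. Mir132, which neuronal activity induces, had 16652 ± 1642 CPM, Mir137 had 12226 ± 884 CPM and Mir153 had 671 ± 458 CPM. Of the 11, 9 were called between the libraries, 7 as higher in replicate 1 and 2 as higher in replicate 2, against the same 65.1% over all genes. The 3 copies of Mir124a had at most 5 counts each. Reads that fit several copies enter no gene, so these counts do not give the level of the microRNA. The same limit holds for other genes of the list with several copies, and so for its detected number and medians. Genes of other cells were also present, with Mir126a of endothelium at 11290 ± 797 CPM and the astrocyte list at 25338 ± 183 CPM. The oligodendrocyte list summed to 7897 ± 2556 CPM and that of microglia and leukocytes to 787 ± 35.3 CPM. The genes of the astrocyte list went opposite ways in CPM only. On the TMM scale all 3 were higher in replicate 1, with log2 ratios of -0.19 (Mir29a), -0.51 (Mir29c) and -1.32 (Mir21a). Mir29a had 19511 CPM in replicate 1 and 21307 CPM in replicate 2. Mir21a had 3475 and 1735 CPM, and Mir29c had 2481 and 2167 CPM. The muscle genes Mir1a-1, Mir1a-2 and Mir133a-1 had no count. Reads that fit several loci enter no gene, so this does not show that muscle RNA was absent. Mir206 of the same list had 196 counts in replicate 1 and 446 in replicate 2. In CPM, 4 of the lists were higher in replicate 2, as were 7 of the 8 detected genes described here, on a scale where the median log2 ratio of all detected genes was 0.31. The choroid plexus list (2 of 2 genes detected) had 840 CPM in replicate 1 and 1466 CPM in replicate 2. The oligodendrocyte list (2 of 2) had 6090 and 9705 CPM, and its genes went opposite ways, Mir338 with 3083 and 6890 CPM and Mir219a-2 with 3007 and 2815 CPM. The muscle list (1 of 4) had 52.2 and 79.7 CPM, and the liver list (1 of 1) had 23.9 and 47.5 CPM. The part of these cells in the differences between the libraries was not tested. The reads are of tissue with no cell assignment, and fewer cells of a type and less RNA per cell cannot be told apart.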

How the data were processed

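MicroRNA sequencing libraries of hippocampal tissue (1 group, n = 2) were analysed. The authors deposited raw read counts per miRNA gene, 1 unstranded and 2 stranded columns, made on mm10 with GENCODE M21, per the text deposited with the tables; no source used here names the aligner or the counter. The stranded column with the larger total was taken as sense. Library sizes leave out the 4 summary lines. The members and lists were chosen with earlier results of these data known. Named genes are the 9 members, their overlapping genes, the 3 highest of the neuron list and the detected genes next above and below each leading locus. Mir124a and the other cell type markers come from lists. Slc12a3, Lep and Mir670, the nearest genes of 3 loci, fall outside that rule and were named after the values were seen. GENCODE M21 named all 2202 identifiers and gave hairpins, and RefSeq gave mature sequences for all 9 members. Hairpins were compared with each other and not with the genome.

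Scaling and dispersion came from edgeR 4.0.16 (TMM), with DESeq2 1.42.0 size factors and total counts as alternatives. Exact binomial and Fisher tests (scipy 1.17.1) were adjusted by Benjamini-Hochberg at 0.05 over all detected genes or pairs, and were tested on simulated data. The simulated counts held counting error alone, so they do not show how the tests behave under the larger spread between these libraries. A quasi-likelihood fit has no contrast in 1 group. Intervals and limits hold counting error alone, as the reads carry no molecular identifiers and may be copies of one molecule. The libraries differed by more than counting noise (chi-square against equal TMM-scaled levels 365714, 383 degrees of freedom), so their tables are not copies of 1 library, which does not show separate animals. A count of 0 allows up to 3 counts. Other columns, denominators, minimums of 5 or 50 counts or none, a chi-square test and each replicate left out were tried.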

Additional observations from a re-analysis of the deposited data

How the results depend on the processing

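The count column mattered most for mir-129: with unstranded counts, which drop reads on overlapping genes, Mir129-2 kept a mean of 10 counts and the share of Mir129-1 turned from 12.9% to 98.9%. The shares of mir-128, mir-138 and mir-218 did not move with that column, which left 19 pairs to test in place of 22 and called 8 in place of 11. Summing counts over libraries kept each of the 4 shares within its SD. Leaving out a replicate gives the value of the other library, as the report prints. With total counts in place of TMM, the log2 ratios of Mir128-1 and Mir128-2 turned to 0.24 and 0.059, and 195 of 271 called genes (72.0%) were higher in replicate 2, against 119 of 250. With all reads as denominator, the 9 genes summed to 8479 reads per 1000000 and the neuron list to 10774. The neuron list summed to 33205 CPM with unstranded counts. All 8 detected members were called under each scaling, filter and test run on sense counts, and 7 of 7 with unstranded counts. The calls on the mir-128, mir-138 and mir-218 shares held in each alternative. The count column and the minimums left the counts of these pairs unchanged and altered only the number of pairs adjusted over. Apart from that number, only the chi-square test could have changed these calls. The mir-129 share was called in none. Its adjusted p ran from 0.0515 (Fisher's exact test, minimum of 50 counts) to 0.406 (Fisher's exact test, unstranded counts). The tables limit what can be said, since 51.5% and 46.7% of the reads mapped to several places and enter no gene.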
